A study of Homo sapiens with 20 samples.

Results

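The 8 genes DLX1, DLX2, DLX5, DLX6, LHX6, GAD1, GAD2 and SLC32A1 were followed through 18 days of neuronal differentiation in culture. They are the transcription factors, the synthetic enzymes and the vesicular transporter by which inhibitory GABAergic neurons of the forebrain are usually recognised. Each symbol was looked up among the coding records of the deposited gene table, and where a symbol has several records the one with the highest mean over the days is kept. All 8 symbols have 1 coding record each, none of them merged with another gene, out of 20237 coding records and 38369 records in all.

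The cells were neural progenitor cells derived from H1, a single established line of human embryonic stem cells, with no genetic change named in the labels. They were kept on Matrigel in medium with FGF, a growth factor that holds progenitors in division, and at day 0 the medium was switched to one without FGF and with BDNF, a neurotrophic factor. Polyadenylated RNA was sequenced from 20 cultures, 3 on each of days 0, 1, 2, 4, 11 and 18 and 2 on day 5, and the cells of days 5, 11 and 18 had been replated on poly-D-lysine and laminin at day 4. The deposited values are in FPKM, which counts sequenced fragments per length of transcript and per size of library. Each record has 1 value per day, pooled over the cultures of that day before deposit. The spread between cultures can therefore not be given for any value below, no test was run on them, and a gene is called higher or lower only where log2(FPKM + 0.1) moved by at least 1, which is a rule of size. All values are from bulk RNA, in which fewer cells of a type and less RNA per cell cannot be told apart.

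GABA, the main inhibitory transmitter of the brain, is made from glutamate by the enzymes GAD67 and GAD65, which GAD1 and GAD2 encode. SLC32A1 encodes VGAT, the transporter that loads GABA and glycine into synaptic vesicles. In the ventral forebrain, DLX1 and DLX2 and then DLX5 and DLX6 are homeobox factors of the progenitors and young neurons that become interneurons and striatal neurons, and LHX6 is a LIM homeobox factor of the interneurons born in the medial ganglionic eminence. The DLX genes stand as convergent pairs. In the genome build of the files, hg19, DLX1 (chr2:172950208-172954399, + strand) and DLX2 (chr2:172964167-172967478, − strand) were 9767 bases apart, and DLX6 (chr7:96635290-96640351, + strand) and DLX5 (chr7:96649704-96654143, − strand) 9352 bases apart. GAD1 (chr2:171673200-171717657, + strand) lies on the same chromosome as DLX1, 1232550 bases away. LHX6 is at chr9:124964860-124991019 (− strand), GAD2 at chr10:26505236-26593491 (+ strand) and SLC32A1 at chr20:37353105-37358016 (+ strand).

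The labelled cell type was checked against genes added for this purpose after the data had been seen. The neural progenitor genes SOX2 (66.1 to 133 FPKM over the 7 days), NES, which encodes the intermediate filament nestin (180 to 515 FPKM), and SOX1 (8.61 to 17.1 FPKM) were high on every day. The pluripotency factor POU5F1 was listed at no more than 0.108 FPKM and NANOG at no more than 0.0207 FPKM. Genes of neural crest and mesenchyme were present beside them at day 0. COL1A2, a chain of type I collagen, was listed at 33.6 FPKM, the crest factor SNAI2 at 13.3 FPKM, the matrix protein POSTN at 12.5 FPKM and the bone factor RUNX2 at 7.02 FPKM, and by day 18 these stood at 3.81, 0.525, 0.229 and 0.175 FPKM. The summed level of the 18 crest and mesenchymal genes examined went from 343 FPKM at day 0 to 67.5 FPKM at day 18, and most of it was the collagen gene COL3A1 (238 and 30.5 FPKM). The paired box factors PAX3 and PAX7 of crest and dorsal neural tube took another course, with PAX3 at 31.0 FPKM on day 0, 62.3 on day 11 and 27.9 on day 18, and PAX7 at 0.697 FPKM on day 0 and 2.55 on day 18. SOX10 and FOXD3, which define early neural crest, stayed under 1 FPKM on every day. Their part in the values below was not tested.

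Every one of the 8 genes stayed under 1 FPKM on every day. The highest value of any of them on any day was 0.266 FPKM, for GAD1 at day 18. This held for 8 of 8 genes, against 38.7% of all coding records. By the mean over the 7 days the order was DLX1 (0.177 FPKM), GAD1 (0.147 FPKM), LHX6 (0.0851 FPKM), DLX2 (0.0698 FPKM), SLC32A1 (0.0637 FPKM), GAD2 (0.0623 FPKM), DLX5 (0.00940 FPKM) and DLX6 (0.00603 FPKM). With 1 value per day, neighbours in this order cannot be said to differ, and DLX2, SLC32A1 and GAD2 had nearly equal means. DLX1 stood at percentile 32.9 of the coding records and DLX6 at percentile 17.7, so the range from first to last fell within the lower part of the distribution. Only DLX1 and GAD1 reached a mean of 0.1 FPKM, the level used below as a filter on low values.

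**Figure D1:**
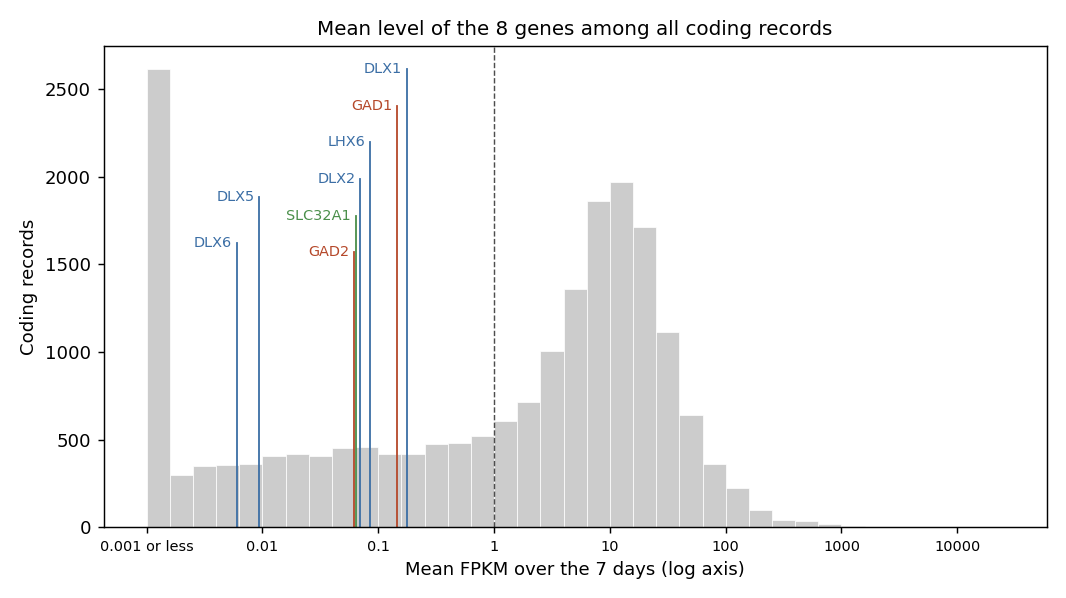
Grey bars count the 20237 coding records by their mean FPKM over the 7 days (log axis, with records at 0.001 or less in the first bar), and coloured lines mark the mean of each of the 8 genes (blue, transcription factors; red, GABA synthesis; green, vesicle loading; line height carries no value). All 8 lines lie left of the dashed line at 1 FPKM, between 0.00603 FPKM for DLX6 and 0.177 FPKM for DLX1.

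What such low values rest on can be read approximately from the files. Because fragments are whole, the lowest values of long genes with a single isoform pile up at what 1 fragment is worth, and this step was estimated for each day over 10294 such records. It was smallest at day 18, and the steps of days 0 and 2 were 3.0 and 4.06 times as large, so that day 18 was the day with the finest resolution and day 2 that with the coarsest. The fragment numbers below were added after the data were seen. They are estimates, since the cultures of a day differ in depth, and a gene with several isoforms is given a range from its shortest to its longest isoform. No interval was put on them.

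DLX1 was the only DLX gene with a mean above 0.1 FPKM. Its values were 0.252 FPKM on day 0, 0.202 on day 1, 0.122 on day 2, 0.150 on day 4, 0.215 on day 5, 0.171 on day 11 and 0.124 on day 18. Day 0 was the highest, and days 2 and 18 were the lowest and nearly equal, each with a small number of fragments behind it (6.33 to 17.0 at day 2, 26.1 to 70.2 at day 18). From day 0 to day 18 the difference in log2(FPKM + 0.1) was −0.65. DLX2, its neighbour, was listed at 0.0187 FPKM on day 0, 0.0493 on day 1, 0.0745 on day 2, 0.0565 on day 4, 0.0701 on day 5, 0.118 on day 11 and 0.102 on day 18. Its lowest value was the first and its highest that of day 11, a difference of 0.77 on the log2(FPKM + 0.1) scale between days 0 and 18, which is under the threshold. Day 0 was thus the highest day of DLX1 and the lowest of DLX2, and neither passed the rule of size. The day 0 value of DLX2 rests on only 1.49 to 3.39 fragments, against 24.5 to 55.4 at day 18.

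DLX5 and DLX6 were close to the limit of detection. DLX5 was listed at 0 FPKM on days 0, 1 and 5, at 0.0189 on day 2, 0.00599 on day 4, 0.0169 on day 11 and 0.0240 on day 18. Its value on day 18 corresponds to 5.13 to 7.65 fragments. DLX6 was listed at 0 FPKM on days 0, 1 and 2, at 0.00448 on day 4, 0.0155 on day 5, 0.00946 on day 11 and 0.0127 on day 18. DLX6 has 1 isoform of 1790 bases, and these values correspond to 0.996, 4.05, 2.32 and 5.25 fragments. At the resolution of day 0, 3 fragments of DLX6 would have been worth 0.0218 FPKM, more than its value on day 18, and 3 fragments of DLX5 at least 0.0282 FPKM, again more than its value on day 18. A rise of DLX5 or DLX6 between days 0 and 18 was therefore not detectable at this depth, and no fold is given.

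The other transcripts of the DLX loci were as low. The remaining DLX genes with a coding record, DLX3 and DLX4, reached at most 0.0385 and 0.0852 FPKM. The antisense record linc-DLX6-AS went from a listed 0 on day 0 to at most 0.0253 FPKM, on day 11, and its exons share 55 bases (3.07%) of the 1790 exon bases of DLX6 on the other strand. Counting by strand is not stated for these files, so reads in that stretch cannot be assigned to one of the 2 genes. The record linc-DLX2 reached 0.0452 FPKM, linc-DLX2-BP was above 0 on day 4 only (0.0231 FPKM) and linc-DLX4 was listed at 0 throughout. Of the 12 nearest named coding genes on either side of the 8 genes, 8 had a mean of at least 1 FPKM, as did 58.3% of all coding records. SHFM1, 296087 bases from DLX6, was listed at 75.0 to 201 FPKM, and HAT1, a histone acetyltransferase gene 101609 bases from DLX1, at 11.5 to 44.3 FPKM. RBM18, 10815 bases from LHX6, was listed at 9.32 to 11.2 FPKM, while MORN5, 2493 bases away on the other side, reached only 0.374 FPKM. On 1 side of GAD1, GAD2 and SLC32A1, the neighbours SP5, APBB1IP and ADIG reached at most 0.0270, 0.00415 and 0.0112 FPKM. The nearest named coding genes found on either side of both DLX pairs, 91762 to 337683 bases away, were above 1 FPKM on every day. A mean at or above that level was common, at 58.3% of all coding records, so this is not particular to the DLX loci.

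LHX6 had its peak on the day after replating. It was listed at 0.0869 FPKM on day 0, 0.110 on day 1, 0.0928 on day 2, 0.0704 on day 4, 0.208 on day 5, 0.0142 on day 11 and 0.0127 on day 18. The value of day 5, for which only 2 cultures were deposited and which follows the replating, was the highest, and those of days 11 and 18 were the lowest. They rest on 104 to 108 fragments at day 5 and 6.65 to 6.92 fragments at day 11. The difference in log2(FPKM + 0.1) was 0.85 between days 4 and 5 and −1.43 between days 5 and 11. Without the filter on low values LHX6 was the only one of the 8 genes past the threshold in that step, against 4.25% of all records in either direction. From day 0 to day 18 its difference was −0.73, on a scale that understates changes at this level. The ratio of the FPKM values of these days was 0.147, on 22.8 to 23.7 fragments at day 0 and 10.0 to 10.4 at day 18. Whether 1 culture of day 5 carries the peak cannot be seen in a pooled value.

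**Figure D2:**
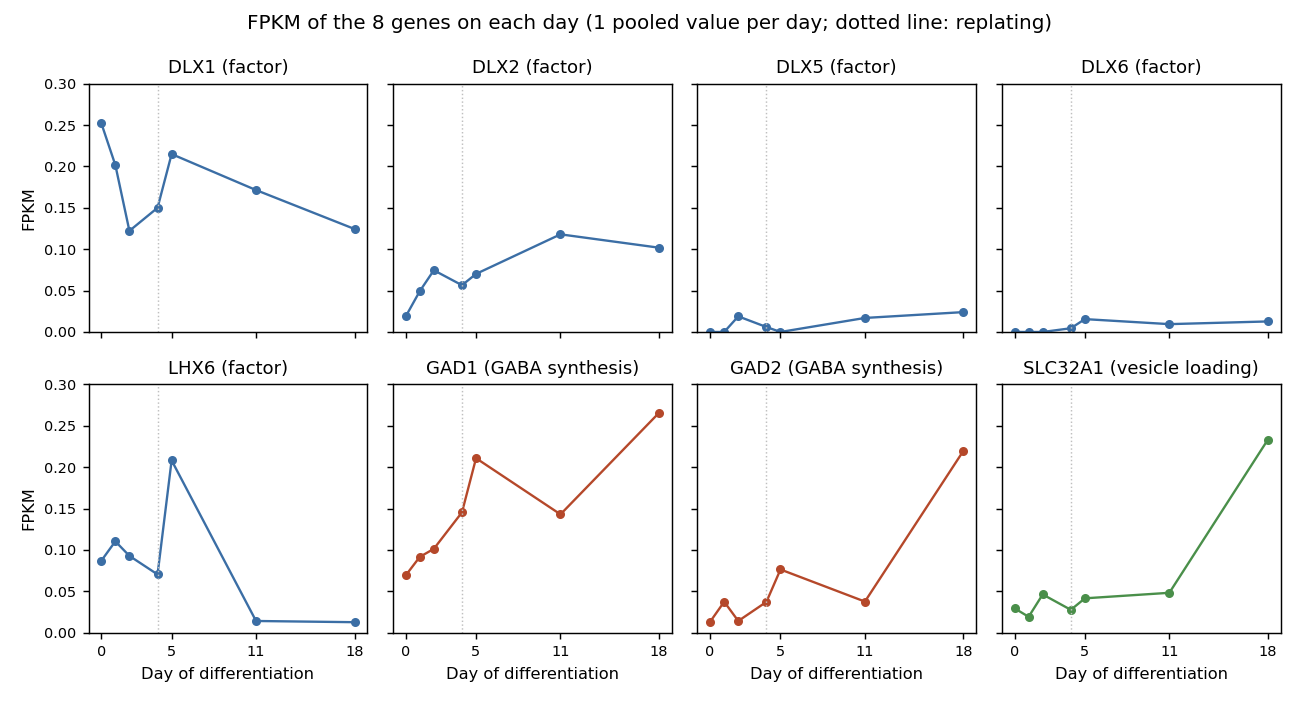
Each panel shows 1 gene, with FPKM on a linear axis from 0 to 0.3 against the day of differentiation, 1 pooled value per day without error, and the dotted line at the replating of day 4. GAD1, GAD2 and SLC32A1 had their highest values at day 18 (0.266, 0.220 and 0.233 FPKM), LHX6 its highest at day 5 (0.208 FPKM), and DLX5 and DLX6 stayed at 0.0240 FPKM or less.

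The genes of GABA synthesis and loading took another course. GAD1 was listed at 0.0692 FPKM on day 0, 0.0916 on day 1, 0.101 on day 2, 0.145 on day 4, 0.211 on day 5, 0.143 on day 11 and 0.266 on day 18. Each day up to day 5 was above the one before, day 11 was back at the level of day 4, and day 18 was the highest, with 73.3 to 224 fragments against 6.36 to 19.4 at day 0. Its ratio of day 18 to day 0 was 3.84, and the difference in log2(FPKM + 0.1), which understates changes at this level, was 1.11. GAD1 was thereby higher at day 18, the only one of the 2 filtered genes to be so. The same call was made for 10.5% of the 21743 records with a mean of at least 0.1 FPKM, while 24.2% of these were lower, as was none of the 2 genes.

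GAD2 was listed at 0.0132 FPKM on day 0, 0.0375 on day 1, 0.0142 on day 2, 0.0372 on day 4, 0.0764 on day 5, 0.0376 on day 11 and 0.220 on day 18. Days 0 and 2 rest on no more than 2.99 and 2.37 fragments, days 1, 4 and 11 were nearly equal, and day 18 stood clear of all others with 50.0 to 149 fragments. From day 11 to day 18 the value changed 5.84-fold, or by 1.22 on the log2(FPKM + 0.1) scale. From day 0 the difference was 1.5 on that scale, a number that at so few fragments depends on the constant added.

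SLC32A1 was listed at 0.0295 FPKM on day 0, 0.0192 on day 1, 0.0463 on day 2, 0.0277 on day 4, 0.0416 on day 5, 0.0483 on day 11 and 0.233 on day 18. Having 1 isoform of 2575 bases, it allows 1 estimate of fragments per day: 6.03, 6.89, 7.01, 9.14, 16.1, 17.6 and 143. The first 6 days lay within a narrow band and day 18 stood apart, 4.83-fold above day 11, which is 1.17 on the log2(FPKM + 0.1) scale. The difference from day 0 was 1.36.

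Without the filter on low values, 3 of the 8 genes, namely GAD1, GAD2 and SLC32A1, were higher at day 18 than at day 0, and none was lower by the rule of size. Over all records without the filter, 6.69% were higher and 14.3% lower. GAD2 and SLC32A1 were also past the threshold between days 11 and 18, where 3.22% of all records passed it in either direction. With the filter, neither DLX1 nor GAD1 passed it in any single step, while the filtered records did so in 9.06% of cases between days 0 and 1, 1.60% between days 1 and 2, 2.14% between days 2 and 4, 1.42% between days 4 and 5, 6.81% between days 5 and 11 and 5.00% between days 11 and 18. Summed over GAD1, GAD2 and SLC32A1 the level was 0.112 FPKM at day 0, 0.329 FPKM at day 5, 0.229 FPKM at day 11 and 0.719 FPKM at day 18. Summed over the 5 transcription factors it was 0.358, 0.509, 0.330 and 0.276 FPKM on the same days. Neither sum moved steadily, since both were higher at day 5 than at day 11.

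The scale of the values moved as well. The median record with a mean of at least 1 FPKM differed by −0.56 between days 0 and 18 on the log2(FPKM + 0.1) scale. Relative to it the differences were 2.06 for GAD2, 1.92 for SLC32A1, 1.67 for GAD1, 1.32 for DLX2, −0.09 for DLX1 and −0.17 for LHX6, so DLX2 then also passed the threshold and no direction changed. Over the 8 genes the median difference was 0.54, or 1.10 once that shift was taken off, beside −0.40 without it over all records with a mean of at least 0.1 FPKM. The shift was measured on records with a mean of at least 1 FPKM, and the added 0.1 damps any such shift in genes near 0. LHX8, a listed interneuron factor at 0 on both days, differed by 0.56 once it was taken off. In the lowest of the 8 genes the values with the shift taken off are therefore partly an added constant. Of the filtered records that passed the threshold in either direction, 30.2% were higher without and 65.2% with the shift taken off. With the shift taken off, 19.9% of all filtered records were higher and 10.6% lower, and the counts relative to the median record given below stand beside these shares.

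The promoters of the 3 genes that were higher at day 18 and of DLX1, the highest of the factors, are shown because they share a feature that the choice of genes did not use. They are RefSeq sequences of build GRCh38.p14, which is not the build of the files, and run from 250 bases before to 50 bases after the annotated start of the gene, with every CG dinucleotide in capitals.

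DLX1 (chr2:172085257-172085556, + strand): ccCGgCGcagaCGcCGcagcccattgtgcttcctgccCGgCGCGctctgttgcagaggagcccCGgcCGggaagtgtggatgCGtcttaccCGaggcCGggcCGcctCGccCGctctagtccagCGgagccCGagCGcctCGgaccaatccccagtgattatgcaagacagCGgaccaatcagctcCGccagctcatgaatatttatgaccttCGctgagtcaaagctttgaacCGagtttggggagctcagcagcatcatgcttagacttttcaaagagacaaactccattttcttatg

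GAD1 (chr2:170816637-170816936, + strand): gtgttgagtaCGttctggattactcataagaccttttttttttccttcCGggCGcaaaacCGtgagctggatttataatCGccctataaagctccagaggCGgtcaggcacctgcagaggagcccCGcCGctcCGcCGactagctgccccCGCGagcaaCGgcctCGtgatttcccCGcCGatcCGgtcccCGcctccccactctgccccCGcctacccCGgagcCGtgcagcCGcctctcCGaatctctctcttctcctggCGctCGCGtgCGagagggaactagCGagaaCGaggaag

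GAD2 (chr10:26216122-26216421, + strand): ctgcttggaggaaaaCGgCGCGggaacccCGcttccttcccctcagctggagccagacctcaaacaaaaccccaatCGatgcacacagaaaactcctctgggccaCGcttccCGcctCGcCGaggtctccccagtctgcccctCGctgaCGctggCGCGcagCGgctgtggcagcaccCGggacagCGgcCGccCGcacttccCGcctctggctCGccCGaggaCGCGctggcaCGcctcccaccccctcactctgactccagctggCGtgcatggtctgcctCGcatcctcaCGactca

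SLC32A1 (chr20:38724236-38724535, + strand): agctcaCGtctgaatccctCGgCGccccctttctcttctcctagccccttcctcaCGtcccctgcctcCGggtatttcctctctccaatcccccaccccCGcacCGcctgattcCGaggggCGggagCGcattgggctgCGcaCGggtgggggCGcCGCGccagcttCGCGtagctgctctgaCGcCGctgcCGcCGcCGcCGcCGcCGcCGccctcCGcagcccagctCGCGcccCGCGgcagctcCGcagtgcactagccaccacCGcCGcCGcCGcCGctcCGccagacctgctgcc

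These windows held 23 CG dinucleotides in DLX1, 29 in GAD1, 27 in GAD2 and 38 in SLC32A1. Of the 8 genes, 7 have an entry in the RefSeq table used, all but DLX5. The 7 windows had a median of 30 CG dinucleotides and all had at least 15, beside a median of 14 and a share of 48.9% with at least 15 over 35116 promoters of the same length. The letters TAATTA, the core that many homeodomain factors bind, which read the same on both strands, were found in 0 of 7 windows and in 4.84% of all. Such a count describes letters only.

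The excitatory counterpart of SLC32A1 was far higher. SLC17A6 encodes VGLUT2, which loads glutamate into vesicles, and was listed at 1.32 FPKM on day 0, 19.9 on day 11 and 25.4 on day 18. The summed level of the vesicular glutamate transporter genes SLC17A6, SLC17A7 and SLC17A8 was 98.9 times that of SLC32A1 on day 1, 432 times on day 11 and 114 times on day 18. SLC32A1 thereby made up between 0.459% and 1.61% of the sum of the 4 genes up to day 5, 0.231% on day 11 and 0.868% on day 18. The share was lowest on day 11 and higher again on day 18, after the step in which SLC32A1 itself went up, and it was then still under the 1.41% of day 0. SLC17A6 was 95.8 times the level of GAD1, 116 times that of GAD2 and 109 times that of SLC32A1 on day 18.

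**Figure D3:**
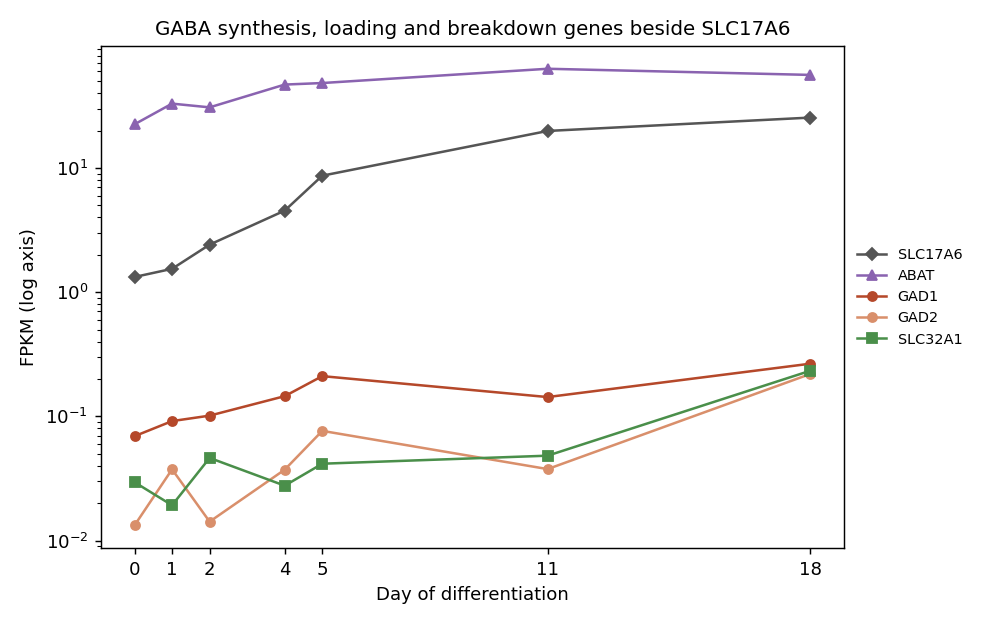
FPKM on a log axis against the day of differentiation for GAD1 and GAD2 (GABA synthesis), SLC32A1 (GABA loading), ABAT (GABA breakdown) and SLC17A6 (glutamate loading), 1 pooled value per day without error. SLC17A6 went from 1.32 to 25.4 FPKM and ABAT lay above it on all 7 days, while the 3 GABA synthesis and loading genes met near 0.22 to 0.266 FPKM at day 18.

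The handling of GABA after release was not low in the same way. ABAT, which encodes the transaminase that breaks GABA down in mitochondria, was listed at 22.5 FPKM on day 0 and 56.1 FPKM on day 18. Of the 16 genes listed for GABA uptake, breakdown and vesicle cofactors, 11 passed the filter and 2 of these were higher, ABAT and ATP6V0A1, a subunit of the vesicular proton pump (13.5 to 30.9 FPKM). ALDH9A1, an aldehyde dehydrogenase of a side route to GABA, was lower (26.1 to 10.7 FPKM). The median difference over the 11 was −0.28 on the deposited scale and 0.28 relative to the median record, so this list has no direction that holds on both scales. Relative to the median, 4 of the 11 were higher and none was lower.

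On the receiving side, all 8 genes of the GABA synapse scaffold with a record passed the filter, and 2 of them were higher at day 18. LHFPL4, an auxiliary protein of GABA-A receptor clusters, went from 0.209 to 5.86 FPKM, and SLITRK3, an adhesion protein of inhibitory synapses, from 0.264 to 3.89 FPKM. The median difference over the 8 genes was 0.68, or 1.24 relative to the median record, with 5 of 8 then higher.

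Factors that pattern the ventral telencephalon were split. Of 16 listed genes, 8 passed the filter, of which 6 were higher at day 18 and 1 lower. GSX1, a homeobox factor of ventral progenitors that is also used in the hindbrain and spinal cord, was listed at 0.328 FPKM on day 0, 9.01 on day 11 and 3.52 on day 18. HES5, an effector of Notch signalling, went from 1.95 FPKM on day 0 to 20.0 FPKM on day 18. GLI1, a target of hedgehog signalling, was lower (1.81 to 0.352 FPKM). Homeobox factors of the ganglionic eminences were close to 0. GSX2 reached at most 0.0268 FPKM, LHX8 0.00472 FPKM and the record that joins NKX2-1 with a neighbouring gene 0.00696 FPKM.

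Of 24 factors of postmitotic interneurons and striatal neurons, 22 passed the filter, 5 were higher at day 18 and none was lower. EBF1, a helix-loop-helix factor of striatal and other neurons, went from 4.87 to 20.0 FPKM and the chromatin organiser SATB1 from 3.36 to 8.85 FPKM. Relative to the median record, 10 of the 22 were higher.

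GABAergic neurons outside the forebrain use other factors, and some of these were present. Of 15 listed genes of midbrain, hindbrain and spinal cord with a record, 9 passed the filter, 5 were higher at day 18 and 2 lower. TFAP2B, an AP-2 factor of some GABAergic neurons and of neural crest, was listed at 21.9 FPKM on day 0 and 56.0 FPKM on day 18, and TFAP2A at 0.0415 and 2.67 FPKM. The LIM factors LHX5 and LHX1 went from 0.0640 to 3.29 FPKM and from 0.0223 to 1.73 FPKM. PAX2, a factor of GABAergic neurons in the dorsal spinal cord and cerebellum, was listed at 0 on day 0, at 0.172 FPKM on day 11 and at 0.525 FPKM on day 18. Its mean of 0.112 FPKM passed the filter only through the day 18 value, the same value that made it higher. PTF1A, which specifies such neurons, was at most 0.0101 FPKM up to day 11 and at 0.132 FPKM on day 18. PAX5 (3.48 to 0.523 FPKM) and a record that joins TAL1 with another gene (12.4 to 1.66 FPKM) were lower. The median over the 9 was 1.35, but with only the 4 genes of a mean of at least 1 FPKM it was −0.59, so the list has no single direction. TFAP2A, like TFAP2B, is also a factor of neural crest, and 8 of the 13 crest and mesenchymal genes that passed the filter were lower at day 18, which was not tested as a link.

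Markers of GABAergic subtypes did not move as a block. Of 22 listed, 13 passed the filter, 6 were higher at day 18 and 4 lower, or 8 higher and 3 lower relative to the median record. CALB2, which encodes calretinin, went from 0.526 to 15.6 FPKM, and SST, which encodes somatostatin, was listed at 0.834 FPKM on day 0, 13.7 on day 11 and 5.74 on day 18. CALB1, which encodes calbindin, went from 52.4 to 9.42 FPKM and CRHBP, which binds corticotropin-releasing hormone, from 2.55 to 0.279 FPKM. PVALB was at most 0.407 FPKM, on day 0, and VIP at most 0.0175 FPKM. SST and CALB2 thus stood above GAD1, GAD2 and SLC32A1 on every day shown.

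The remaining lists describe the cultures in which the 8 genes were measured. Of 16 pan-neuronal genes that passed the filter, 12 were higher at day 18 and 1 lower, with STMN2 going from 32.3 to 727 FPKM and DCX, which encodes doublecortin, from 5.46 to 88.0 FPKM. All 11 cell cycle genes were lower, with CCNB1, which encodes cyclin B1, going from 145 to 20.3 FPKM. Of 13 crest and mesenchymal genes that passed the filter, 8 were lower and 1 higher. Of 16 glutamatergic and dorsal telencephalic genes, 10 passed the filter, of which 6 were higher and 1 lower. The proneural factor NEUROG2 went from 0.693 to 9.93 FPKM. The 6 that did not pass were EMX1, EMX2, FEZF2, NEUROD2, NEUROD6 and TBR1, the highest value being 0.402 FPKM for TBR1 at day 18. Of 12 genes of other transmitters, 5 passed the filter, of which 2 were higher and none was lower. Of 11 glial genes, 8 passed the filter, of which 3 were higher and 3 lower, or 3 higher and none lower relative to the median record. The glutamate transporter genes SLC1A2 and SLC1A3 went from 0.983 to 17.9 FPKM and from 16.2 to 63.1 FPKM. STMN2 was 467 times the level of GAD1 on day 0, 3613 times on day 11 and 2739 times on day 18, and 1094, 10709 and 3120 times that of SLC32A1. Both genes were thus lower relative to STMN2 at day 18 than at day 0, and lowest relative to it at day 11 among these 3 days. STMN2 had the largest difference of the 16 pan-neuronal genes, 4.49 beside a median of 2.45, and the direction depends on the gene chosen. SYT1, also of that list, went from 15.6 to 41.1 FPKM, while GAD1 changed 3.84-fold and SLC32A1 7.90-fold. Relative to SYT1, GAD1 and SLC32A1 were therefore higher at day 18 than at day 0. Their level per neuron was not measured.

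**Figure D4:**
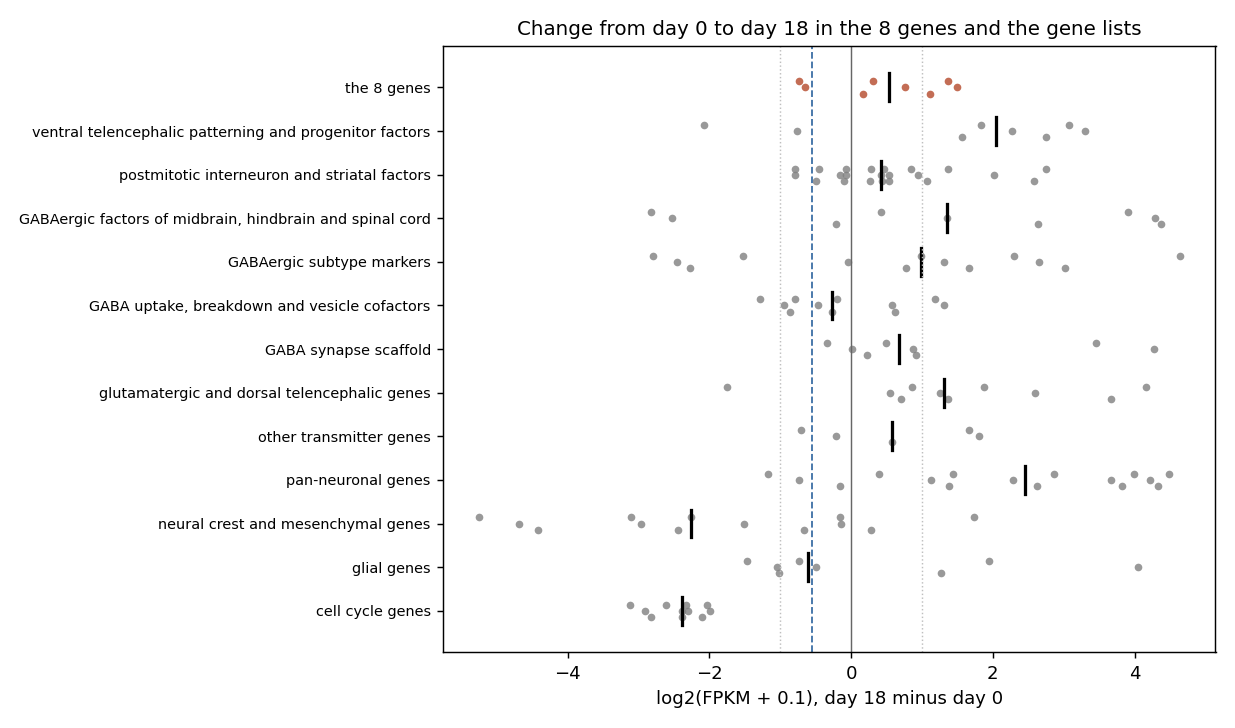
Each point is 1 gene, placed by its difference in log2(FPKM + 0.1) between days 0 and 18, with the 8 genes in red, the genes of each list with a mean of at least 0.1 FPKM in grey, the median of each row as a black bar, dotted lines at the threshold of 1 and a dashed blue line at the median record (−0.56). GAD1, GAD2 and SLC32A1 lie right of the upper threshold, and the median of the 8 genes (0.54) lies under that of the pan-neuronal genes (2.45). The 8 genes are shown without the filter, and the added 0.1 damps their changes more than those of the higher pan-neuronal genes. With 0.01 added instead, the 2 medians were 1.78 and 2.47.

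The records whose course over the 7 days was most like that of DLX1 and GAD1, the 2 genes with a mean of at least 0.1 FPKM, were taken from 5685 coding records. Pearson's r was computed over the 7 day values of log2(FPKM + 0.1). The 5685 are the records with a single symbol, a highest value of at least 1 FPKM and a range over the days of at least 1 on that scale. For GAD1 they were GPR155, a multi-pass membrane protein gene (r = 0.97), HIST2H2AA3, a histone H2A gene with near-identical copies whose reads the counting could split (r = 0.94), and GPD1L, a gene related to glycerol phosphate dehydrogenase (r = 0.94). For DLX1 they were the histone H2A gene HIST1H2AM (r = 0.93), ANGPTL2, which encodes an angiopoietin-like secreted protein (r = 0.92), and the heme exporter gene FLVCR1 (r = 0.91). An r of at least 0.9 was reached by 42 records (0.739%) for GAD1 and by 3 (0.0528%) for DLX1. All records share the same 7 pooled days, so these values describe likeness of shape only.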

How the data were processed

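Polyadenylated RNA of 20 cultures of differentiating H1-derived neural progenitor cells was sequenced by the authors as paired 101-base reads. Per the study's methods, reads were aligned to hg19 with TopHat2 at default options, transcripts were assembled with Cufflinks and values were estimated with Cuffdiff2. Program versions are not given in the sources used here. The deposited FPKM values hold 1 value per record and day, pooled by the authors over 3 cultures (2 on day 5), and 0 columns hold a value of a single culture. The deposited table also holds the authors' fold changes, test statistics, p-values and q-values between adjacent days, and none of these was used. The FPKM matrix and that table differed for 4 records, none of them among the 8 genes. Groups were taken from sample titles.

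Differences were computed on log2(FPKM + 0.1) with Python 3.11.15, numpy 2.4.6 and pandas 2.3.3, drawn with matplotlib 3.10.9 and tested on simulated data. A difference of at least 1 counted as a call, and records with a mean under 0.1 FPKM were left out unless stated. Such a difference is a 2-fold change only where values are far above the added 0.1, and nearer 0 it takes a larger fold. DLX2, for example, changed 5.45-fold between days 0 and 18 with a difference of 0.77 and was not called. limma, planned for values of single samples, was not run. The 8 genes and all lists were chosen with earlier results of these data known, and the fragment estimates and progenitor and pluripotency genes were added after seeing the data. Of each list, at most 4 genes with a mean of at least 1 FPKM and past the threshold were named by size of change, with genes that define another source of the transcripts, and for DLX1 and GAD1 the 3 records most like each. No record was found under 12 listed symbols, among them DLX6-AS1 and SKOR1. A listed 0 can be a failed estimate, since the record that joins ACTB with another gene and COL1A1 are listed at 0 on all 7 days and the record with TUBA1A on day 18.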

Additional observations from a re-analysis of the deposited data

How the results depend on the processing

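No paired analysis was possible because the files hold 1 pooled value per day, and leaving out single cultures was not possible for the same reason. The count of genes higher at day 18 than at day 0 was 1 as reported, 3 without the filter, and 0 with a pseudocount of 1, with a threshold of 2 or with day 11 in place of day 18. With a threshold of 0.5, 1 gene was lower at day 18 and 1 passed between days 11 and 18. Without the filter, 1 gene passed between days 5 and 11 and 2 between days 11 and 18. The median difference over the 8 genes was 1.78 with a pseudocount of 0.01, 1.10 relative to the median record, 0.07 with a pseudocount of 1 and 0.21 with day 11 in place of day 18, against 0.54. With a pseudocount of 1, GAD1, GAD2 and SLC32A1 differed by only 0.24, 0.27 and 0.26, and the list medians were 0.61 for the hindbrain, midbrain and spinal factors, 0.61 for the glutamatergic genes and −0.70 for the crest genes. The subtype markers had a median of 1.46 with a pseudocount of 0.01. Relative to the median record the list medians were 1.55 for subtype markers, 1.24 for the scaffold and 1.13 for other transmitters, and the uptake and breakdown list turned to 0.28 from −0.28. With a pseudocount of 0.01, LHX6 differed by −2.09, DLX2 by 1.96, DLX5 by 1.77 and DLX6 by 1.18, and relative to the median record DLX2 differed by 1.32. With genes of a mean of at least 1 FPKM only, the median of the hindbrain, midbrain and spinal factors was −0.59, on 4 genes against 9, that of the subtype markers −0.049, on 9 genes against 13, and that of the glial genes 1.26 against −0.61, on 5 genes against 8, and none of the 8 genes could be included. Under the alternatives run, each other count stayed within 1.5 times its reported value, and each other median or single-gene difference kept its direction and its side of the threshold. The resolution of 1 fragment limits DLX5, DLX6, DLX2 at day 0 and the early days of GAD2. The causes were not tested, except that a pseudocount acts most on the lowest values by construction.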
